A study of Mus musculus with 2 samples.

Results

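The genes that build heme and the gene that opens it were read on 2 Agilent mouse arrays, 1 of mature hepatocytes (MHs) and 1 of Sox9+EpCAM- cells from livers injured by DDC (3,5-diethoxycarbonyl-1,4-dihydrocollidine). The set was chosen by name and holds 9 of the 30175 gene names on the array: Alas1, Alas2, Alad, Uros, Urod, Cpox, Ppox and Fech of the synthesis, and Hmox1 of the breakdown. All 12 probes of the 9 genes were read.

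The MHs came from healthy livers of Sox9-EGFP mice, in which GFP marks cells that express Sox9. They were purified by low-speed and Percoll gradient centrifugation. The Sox9+EpCAM- cells came from Sox9-EGFP mice on a diet with DDC, and were sorted by FACS as GFP+EpCAM- cells, so that diet and purification differ together between the arrays and their parts cannot be told apart. The labels give both samples as male. The age and number of the mice behind each array and the length of the diet for the array samples are not given in the sources used here.

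Heme is an iron-bearing ring that hepatocytes need in large amounts for cytochrome P450 enzymes and catalase. Its synthesis starts in the mitochondrion with 5-aminolevulinate synthase, runs through the cytosol and ends in the mitochondrion, where ferrochelatase (Fech) puts iron into protoporphyrin. The liver uses the Alas1 form of the starting enzyme, which heme itself holds down, and red cell precursors use Alas2. Hmox1, heme oxygenase 1, opens the ring to biliverdin, iron and carbon monoxide and is a stress-inducible enzyme. DDC is known to block ferrochelatase, so that protoporphyrin builds up in livers of mice that eat it, and the comparison shows how the messages of this chain stood in Sox9+EpCAM- cells of such livers.

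Each group has a single array, so there are no replicates and no test was made. Each probe of the 9 genes has 1 spot per array, and the error given after a signal is the one that the scanner software computed for that spot. A difference is the log2 of the Sox9+EpCAM- signal minus the log2 of the MH signal, after each signal was divided by the 75th percentile of its array, which was 741 for MHs and 1110 for Sox9+EpCAM- cells. A probe that is not well above background on an array has only a bound there. Repeated spots of a probe differed by a median SD of 0.08 on the log2 scale on either array, which covers the spots of an array and not the variation between mice. The arrays shared 1 slide and 1 scan. Gapdh itself had a log2 difference of -0.27. Scaling to Gapdh, an alternative, therefore adds 0.27 to each difference measured on both arrays and brings such values between -0.27 and 0 above 0. Some signals go against the labels. Xist, which is expressed from the inactive X chromosome of females, had a signal of 1940 in MHs and of 16.1, not well above background, in the other sample. The Y-linked gene Ddx3y had 8.43, not well above background, in MHs and 642 in the other sample. The other Xist probe had 3500 in MHs and 4.39 in the other sample. Kdm5d, Eif2s3y and Uty, also Y-linked, were by their brightest probe well above background only in the other sample. These signals go against the male label of the MH sample. Sex may therefore differ between the arrays together with diet and purification. The part of sex in the values below was not tested.

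Hmox1 stood far above the rest of the set. The signal of its brightest probe was 1420 ± 142 in MHs and 49400 ± 4940 in Sox9+EpCAM- cells. Hmox1 was thus 23.2-fold higher in the latter, a log2 difference of 4.54 with a software error of 0.20. The other probe of Hmox1 had 195 ± 20.7 in MHs and 25800 ± 2580 in Sox9+EpCAM- cells, which is 88.3-fold higher, a log2 difference of 6.46. Both probes were thus higher in Sox9+EpCAM- cells, by amounts that differ by 1.93 on the log2 scale. By its brightest probe, Hmox1 lay at percentile 99.6 of the genes with a value, and 33 of the 19235 genes measured on both arrays had a larger difference. It was the only one of the 9 genes at least 4-fold higher, a size that 5.59% of 23417 genes reached.

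The target of the Hmox1 probe with the larger difference is shown because this stretch of the transcript gave the widest gap of the set. The probe lies at chr8:77620797-77620856 (mm9, + strand) and the array design assigns it to the RefSeq transcript of Hmox1. No probe of another gene shares 20 bases with it.
Hmox1 probe: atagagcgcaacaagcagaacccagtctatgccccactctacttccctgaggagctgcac

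Hmox1 is also high in macrophages that clear red cells, and the list of macrophage and Kupffer cell markers was therefore read beside it. Of its 17 genes on the array, 17 were well above background in MHs and 13 in Sox9+EpCAM- cells. Their median log2 difference was -2.78. Below 0 were 16 of 17, against 59.9% of all genes measured on both arrays, although Ptprc, at -0.24, passed above 0 under scaling to Gapdh. At least 4-fold lower were 11, against 5.57% of all genes with a value. The summed signal of the list was 50.1 times the 75th percentile in MHs and 16.6 times in Sox9+EpCAM- cells. Csf1r, a growth factor receptor of macrophages, held most of the latter sum through its brightest probe, with a log2 difference of -0.42, while its other probes had -0.70 and -2.71. Without Csf1r the sums over 16 genes were 33.6 and 4.21. A sum follows its brightest probes, and signals of different probes cannot be set against each other. Cd163, Vsig4, Timd4 and C1qc, markers of resident macrophages, were not well above background in Sox9+EpCAM- cells. Clec4f, a Kupffer cell lectin, was 86.1-fold lower, and Cd5l, a protein that macrophages secrete, had a log2 difference of -5.48. Cd68, a lysosomal protein of macrophages, was the exception and was 14.4-fold higher by its brightest probe and higher by 2.5 on the log2 scale by the other. Genes of the immediate early response, which cells switch on within minutes of stress, were higher together with Hmox1, with 10 of 10 above 0 and a median log2 difference of 4.48. They ran from Dusp1, a phosphatase, with 0.60 and Jun, a transcription factor, with 2.49 to Fosb, another transcription factor, with 6.46 and Ier3 with 7.29. The part of these genes and the part of macrophages in the Hmox1 value were not tested.

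**Figure D1:**
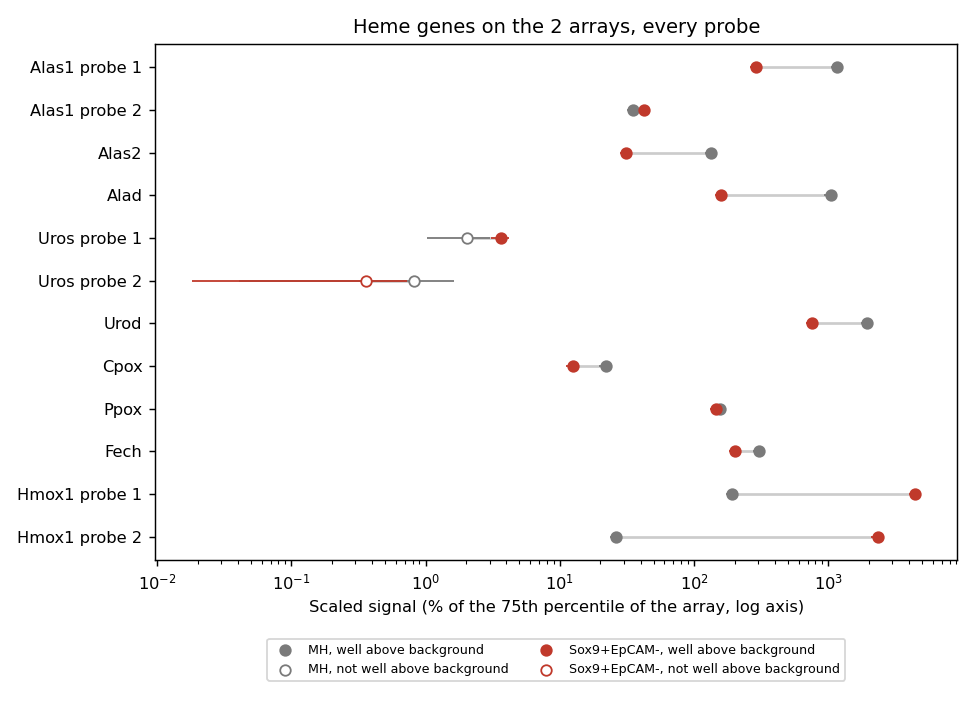
Signal of every probe of the heme genes in percent of the 75th percentile of its array (log axis), with MHs in gray and Sox9+EpCAM- cells in red, open circles for spots not well above background and bars for the software error of the spot. The pairs of Hmox1 open to the right and those of Alad, Alas2 and Alas1 probe 1 to the left; probe 1 is the brightest of its gene, and positions of different probes cannot be set against each other.

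The synthesis genes showed the opposite picture. Of the 7 synthesis genes measured on both arrays, all 7 had a log2 difference below 0 by their brightest probe, although Ppox passed to 0.17 when the arrays were scaled to Gapdh. Below 0 were also 59.9% of the 19235 genes measured on both arrays. At least 4-fold lower were 3 of the 9 genes, Alad, Alas2 and Alas1, against 5.57% of all genes with a value. Scaling to Gapdh and correcting the background by the normexp method each left 1 of them, Alad, past 4-fold. At 2-fold, 4 of the 9 genes were lower, with Urod as the fourth, against 16.7% of all genes, and 1 was higher, against 14.2%. In either direction, 4 of the 9 genes passed 4-fold, against 11.2% of all genes, and 5 passed 2-fold, against 30.9%. The median log2 difference of the 8 genes measured on both arrays was -1.09, and that of all genes measured on both arrays was -0.19. In RNA of many cells, fewer cells of a type and less RNA per cell cannot be told apart.

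Both forms of the starting enzyme had lower signals by their brightest probe. That of Alas1, the form of the liver, had 8580 ± 858 in MHs and 3210 ± 321 in Sox9+EpCAM- cells. This is 4.0-fold lower, a log2 difference of -2.0 with a software error of 0.20, so Alas1 sat on the 4-fold border. The other probe of Alas1 had 261 ± 26.7 and 472 ± 47.3, a log2 difference of 0.27 with a software error of 0.21. The probes of Alas1 therefore gave opposite signs, 2.27 apart on the log2 scale, and the direction of Alas1 depends on the probe.

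The Alas1 probes are both assigned by the array design to the same RefSeq transcript. The brighter probe lies at chr9:106136284-106136343 and the dimmer at chr9:106135796-106135855 (mm9, - strand), so the dimmer starts 488 bases further in the direction of transcription, with 428 bases between them. The brighter probe holds the letters AATAAA, the usual signal for cutting and polyadenylation, from its base 51, and the dimmer does not. Of 39429 probe sequences, 12.6% hold these letters. No probe of another gene shares 20 bases with either. Which transcript ends the cells used was not measured.

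Alas2, the form of red cell precursors, has 1 probe, with 987 ± 98.9 in MHs and 346 ± 34.8 in Sox9+EpCAM- cells. It was 4.27-fold lower, a log2 difference of -2.10. Red cell markers were lower as well. Of 16 erythroid genes on the array, 12 were well above background in MHs and 11 in Sox9+EpCAM- cells. The median log2 difference over 13 with a value was -1.15. Below 0 were 10 of them, against 59.9% of all genes measured on both arrays, and of the 10 Epor passed above 0 under scaling to Gapdh. Rhag and the Hbb-b1 probe were not well above background on either array. Hba-a1, an alpha globin, was 15.5-fold lower, with the reservation that the globin genes are near-identical copies and their probes may not separate them. Car1, a carbonic anhydrase, had -2.11 by its brightest probe and -3.67 by the other, and Slc4a1, the anion exchanger of red cells, had 0.12, which passed below 0 under quantile normalization and with the deposited table. The summed signal of the list was 408 times the 75th percentile in MHs and 296 times in Sox9+EpCAM- cells, nearly all of it from the single probe of Hemgn. Without Hemgn the sums over 15 genes were 7.51 and 5.46, and without Tfrc as well, over 14 genes, 6.82 and 1.88. Signals of different probes cannot be set against each other, so each sum follows its brightest probes. Tfrc, the transferrin receptor, which many growing cells express, was 5.2-fold higher by its brightest probe and had log2 differences of 1.25 and 1.28 by the others. The part of red cells in the Alas2 value was not tested.

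Alad, which joins a pair of 5-aminolevulinate molecules to porphobilinogen, was the synthesis gene with the lowest difference. Its probe had 7700 ± 770 in MHs and 1750 ± 175 in Sox9+EpCAM- cells, 6.59-fold lower, a log2 difference of -2.72. Alad lay at percentile 2.75 of all genes with a value. The Alad probe, shown as the stretch behind the lowest value of the set, lies at chr4:62172559-62172618 (mm9, - strand) and has no 20 bases in common with other genes' probes.
Alad probe: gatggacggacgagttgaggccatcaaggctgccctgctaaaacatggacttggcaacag

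Uros, which closes the chain to the ring of uroporphyrinogen III, was barely measured. Its probe assigned to the RefSeq transcript had 15.0 ± 7.43 on the MH array, not well above background, and 40.5 ± 6.19 in Sox9+EpCAM- cells. With the bound on the MH array no fold can be given. The other probe of Uros was not well above background on either array, with 6.03 and 4.01.

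Urod, which removes carboxyl groups from uroporphyrinogen, was lower in Sox9+EpCAM- cells. Its probe had 14300 ± 1430 in MHs and 8370 ± 837 in Sox9+EpCAM- cells, 2.56-fold lower, a log2 difference of -1.36. Alad and Urod, both of the cytosolic part, were thus lower.

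The genes of the closing mitochondrial steps lay nearer to 0. Cpox, coproporphyrinogen oxidase, had 163 ± 17.8 in MHs and 138 ± 14.6 in Sox9+EpCAM- cells, with a log2 difference of -0.82. Ppox, protoporphyrinogen oxidase, had 1150 ± 115 and 1610 ± 161, a log2 difference of -0.10 and within its software error of 0.20. Fech, the enzyme that DDC blocks, had 2250 ± 225 in MHs and 2240 ± 224 in Sox9+EpCAM- cells. The unscaled signals of Fech were thus alike, and the scaled log2 difference of -0.59 comes from the higher 75th percentile of the Sox9+EpCAM- array. Under the alternatives the value of Fech stayed between -0.77 and -0.32. Fech lay at percentile 27.8 of all genes with a value and Ppox at 47.7.

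**Figure D2:**
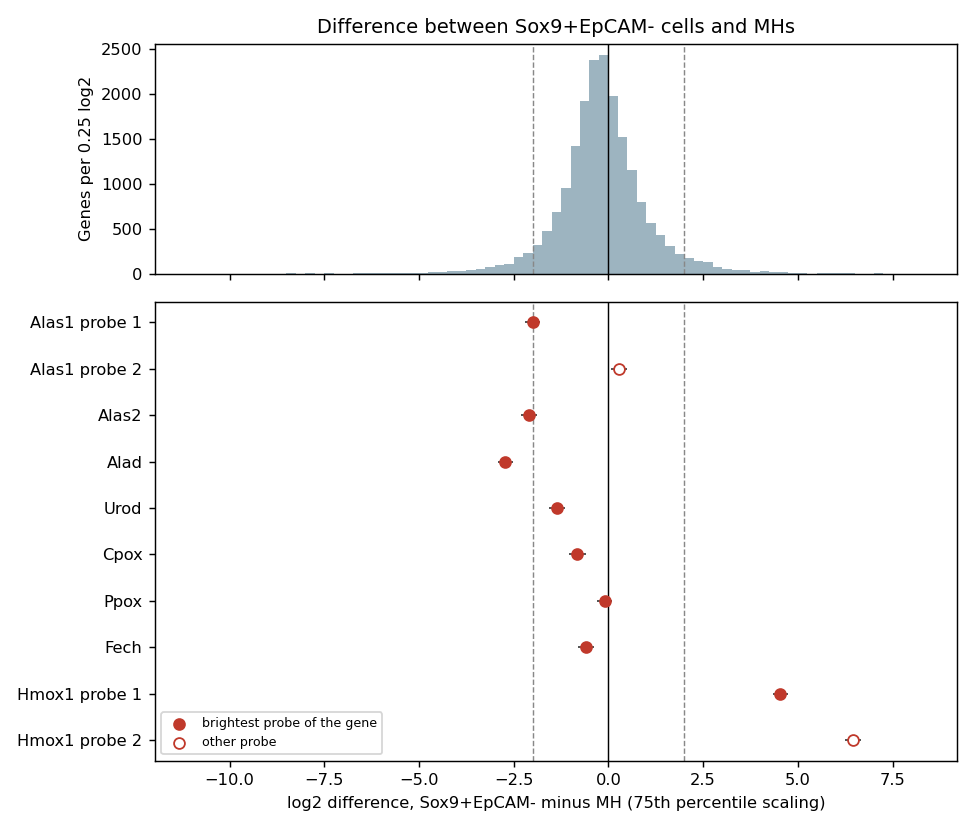
Above, log2 differences of the 19235 genes measured on both arrays in bins of 0.25; below, the log2 difference of each probe of the heme genes with the software error as a bar, filled for the brightest probe of a gene. Dashed lines mark 4-fold. Hmox1 lies at 4.54 and 6.46 on the right, Alad at -2.72 on the left, and the probes of Alas1 lie at -2.0 and 0.27.

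The bases before the start sites of Alad and Urod are shown because these genes of the cytosolic part were both lower. They come from RefSeq on GRCm38.p6, whose table held 10 windows of 250 bases before to 50 after a start for 7 of the 9 genes; Fech and Hmox1 were not matched. Capitals mark CACGTG, the E-box, searched on both strands together with 3 other motifs chosen after the sequences were seen. The stretch of Alad lies at chr4:62520064-62520313 and that of Urod at chr4:116994414-116994663, both on the - strand.
Alad upstream: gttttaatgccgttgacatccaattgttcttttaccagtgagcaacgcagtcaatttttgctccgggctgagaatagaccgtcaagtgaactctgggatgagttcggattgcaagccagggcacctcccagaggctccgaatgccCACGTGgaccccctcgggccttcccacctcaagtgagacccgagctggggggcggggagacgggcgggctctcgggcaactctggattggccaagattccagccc
Urod upstream: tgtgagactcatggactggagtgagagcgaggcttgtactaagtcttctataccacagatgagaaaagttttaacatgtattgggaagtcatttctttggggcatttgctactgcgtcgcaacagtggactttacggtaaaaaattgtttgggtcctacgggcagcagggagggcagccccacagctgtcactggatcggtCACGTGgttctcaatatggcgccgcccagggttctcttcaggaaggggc

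CACGTG stood in 4 of the 10 windows, 2 of Alad with different starts, 1 of Urod and 1 of Uros, against 7.15% of 32851 windows of the same length. The palindrome of 10 bases that the factor NRF1 is known to bind stood at 1 site of Alas1, which both of its windows cover, against 0.971% of all windows. The motif of GATA factors, searched as AGATAA, stood in the windows of Alas2 and Cpox, both times on the opposite strand, against 11.2%. TGACNNNGC, the core of the antioxidant response element, stood in none of the 10 windows, against 12.4% of all. A match describes the letters only, and no binding was measured.

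Of the other genes that break down heme or handle bilirubin, 5 were on the array and none was at least 2-fold higher. That size was reached by 14.2% of all genes with a value, so none among 5 is near that share. At least 4-fold lower were 2 of the 5, Blvrb and Slco1b2, against 5.57% of all genes. Hmox2, the constitutive heme oxygenase, had log2 differences of 0.40 by its brightest probe and -0.32 by the other. Blvra and Blvrb both reduce biliverdin. Blvra had signals of 2080 in MHs and 3040 in Sox9+EpCAM- cells, with a log2 difference of -0.04, which passed above 0 under scaling to Gapdh and quantile normalization. Blvrb had 292 in MHs and 82.5 in Sox9+EpCAM- cells and was 5.30-fold lower. Slco1b2, a carrier for uptake into hepatocytes, was 8.85-fold lower, and Abcc2, which exports conjugated bilirubin to bile, had a log2 difference of -0.66. None of these 5 genes was thus higher by as much as Hmox1. Ugt1a1, which conjugates bilirubin, is not on the array under that name, so that step was not read.

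The carriers of heme, its precursors and mitochondrial iron were mostly on the lower side. Of 17 on the array, 14 were below 0, against 59.9% of all genes measured on both arrays. Of these, Abcg2 and Pgrmc2 passed above 0 under scaling to Gapdh, and Abcg2 also under quantile normalization. At least 2-fold lower were 6, against 16.7% of all genes with a value, and the median log2 difference was -0.89. Abcb6, with -1.01, Tmem14c, with -1.05, and Pgrmc1, with -1.22, do not reach 2-fold under scaling to Gapdh. Slc46a1, which can carry heme and folate, was 14-fold lower by its brightest probe and by -3.59 on the log2 scale by the other. Slc25a37, mitoferrin 1, which brings iron into mitochondria, had -1.92 and -0.91 by its probes. Slc25a38, which is needed for the glycine supply of the starting enzyme, had -0.92, and the porphyrin-related transporter Abcb6 had -1.01. Abcg2, which can export protoporphyrin, had signals of 3480 and 4750 and a log2 difference of -0.13. Above 0 were Tspo, a protein of the outer mitochondrial membrane, with 0.18, which passed just below 0 with the deposited table, Slc48a1, a heme transporter, with at least 0.27, and Hebp2. Hebp2, a heme-binding protein, was the only carrier of the list at least 4-fold higher, a size that 5.59% of all genes reached. It had 7.80, not well above background, in MHs and 603 in Sox9+EpCAM- cells, at least 14.5-fold higher.

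Of the proteins that scavenge hemoglobin and heme in plasma, Hp (haptoglobin) had a log2 difference of 0.65 and Hpx (hemopexin) one of -0.22, which passed above 0 under scaling to Gapdh and quantile normalization. Cd163, the macrophage receptor for haptoglobin bound to hemoglobin, had 147 in MHs and 17.5, not well above background, in Sox9+EpCAM- cells, at least 12.0-fold lower. Lrp1, the receptor for hemopexin, had 0.38 by its brightest probe and -0.57 and -2.37 by the others, so its direction depends on the probe.

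The regulators of Alas1 and Hmox1 went both ways, with 8 of 17 above 0 and 9 below, and the median log2 difference of -0.23 passed to 0.03 under scaling to Gapdh. Mafk, a small Maf protein that pairs with Bach1 and with Nrf2, had 176 in MHs and 2130 in Sox9+EpCAM- cells and was 8.08-fold higher. Its relative Maff was not well above background in MHs, with 6.34, and had 145 in Sox9+EpCAM- cells, at least 3.48-fold higher. The probes of Mafg lay between -0.25 and 0.92. Bach1, the heme-sensing repressor of Hmox1, had 7.28, not well above background, and 51.3, at least 1.23-fold higher. Nfe2l2, which encodes Nrf2, had a log2 difference of 0.55 and Keap1, which holds Nrf2 back, one of -0.85.

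Nr1d1, a repressor of the circadian clock that also acts on Alas1, was 23.2-fold higher, with 660 in MHs and 22900 in Sox9+EpCAM- cells. Nr1i3, the nuclear receptor CAR, which raises Alas1 in response to drugs, was 9.99-fold lower by its brightest probe and by -2.64 on the log2 scale by the other. Nr1i2, the receptor PXR, had -0.65 and Foxo1 had -1.23. Ppargc1a, a coactivator of Alas1 in fasting, had -0.61 by its brightest probe and at least 0.39 by the other, so its direction depends on the probe.

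The other targets of Nrf2 went both ways. Of 14 with a value, 2 were at least 4-fold higher, against 5.59% of all genes, and 1 at least 4-fold lower, against 5.57%. At 2-fold, 4 were higher and 2 lower, against 14.2% and 16.7% of all genes, and the median log2 difference of -0.24 passed to 0.03 under scaling to Gapdh. Osgin1, a stress response gene, was 12.8-fold higher and Srxn1, sulfiredoxin, 6.28-fold higher. G6pdx, which supplies NADPH, had a log2 difference of 1.08, Txnrd1, a thioredoxin reductase, one of 1.0 and Gsr, glutathione reductase, one of 0.39. Nqo1, a quinone reductase, had -0.65, Gclm and Gclc, which together make the enzyme that starts glutathione synthesis, had -0.23 and -0.24 and passed above 0 under scaling to Gapdh and quantile normalization. Of the glutathione transferases, Gsta4 was 5.31-fold lower and Gstm1 had -1.01.

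**Figure D3:**
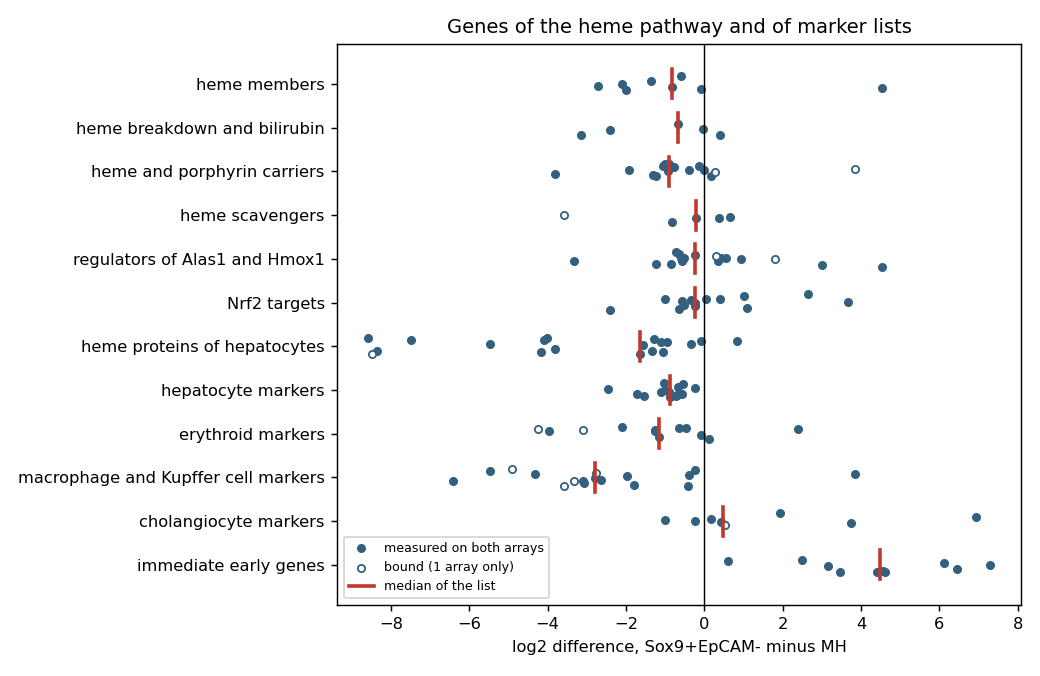
Log2 difference of each gene of the heme pathway and of the marker lists, filled when measured on both arrays and open for bounds, with a red bar for the median of the list. The heme genes lie around -0.82 with Hmox1 alone at 4.54, and the proteins that carry heme reach down to -8.58.

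Most heme proteins of hepatocytes were on the lower side, as the synthesis genes were. Their list also counts Por, a flavoprotein that binds no heme and passes electrons to the P450 enzymes. Of 19 on the array, 18 were below 0, against 59.9% of all genes measured on both arrays. Of the 18, Cyp4a10 and Cyp2d10 passed above 0 under quantile normalization, and Cyp4a10 also under scaling to Gapdh. At least 4-fold lower were 9, against 5.57% of all genes with a value, and the median log2 difference was -1.65. Cyp3a11, a P450 of drug metabolism, was 381-fold lower by its brightest probe, with 85800 in MHs and 337 in Sox9+EpCAM- cells, and had a log2 difference of -9.62 by the other. Cyp1a2 was 330-fold lower. Cat (catalase) had -0.94 by its brightest probe and -1.64 by the other, and Por had -1.58. Of the P450 genes, Cyp4a10, with -0.09, Cyp2d10, with -0.35, and Cyp4a14, with 0.83, lay nearest to 0.

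General hepatocyte markers were lower as well. All 14 were well above background on both arrays. Below 0 were 14 of 14, against 59.9% of all genes measured on both arrays. Hnf4a, at -0.23, however passed above 0 under scaling to Gapdh and, with Apoa1 and Fgb, under quantile normalization. At least 4-fold lower was 1, Tat, which is near the share of 5.57% of all genes with a value. The median log2 difference was -0.89. Alb, albumin, had signals of 207000 and 170000, a log2 difference of -0.87, which is close to the median of the list. Cps1, an enzyme of the urea cycle, had -1.73, and Apoa1, an apolipoprotein, had -0.54. The value of Alad, -2.72, lay below that of every hepatocyte marker of the list, of which Tat was the lowest with -2.46, while Alas1 by its brightest probe, Alas2, Urod, Cpox and Fech lay within the range of the list and Ppox, at -0.10, above it. The median log2 difference of 8 cholangiocyte markers was 0.47. Cftr, a chloride channel, had -1.0, and Krt7, a keratin, had -0.23, which passed above 0 under scaling to Gapdh. Spp1, with 6.93, and Epcam, with 3.73, were those at least 4-fold higher, against 5.59% of all genes, although the sort took EpCAM- cells. The part of bile duct cells in the values was not tested. Whether the synthesis genes and the markers moved together in the same cells was not tested.

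**Figure D4:**
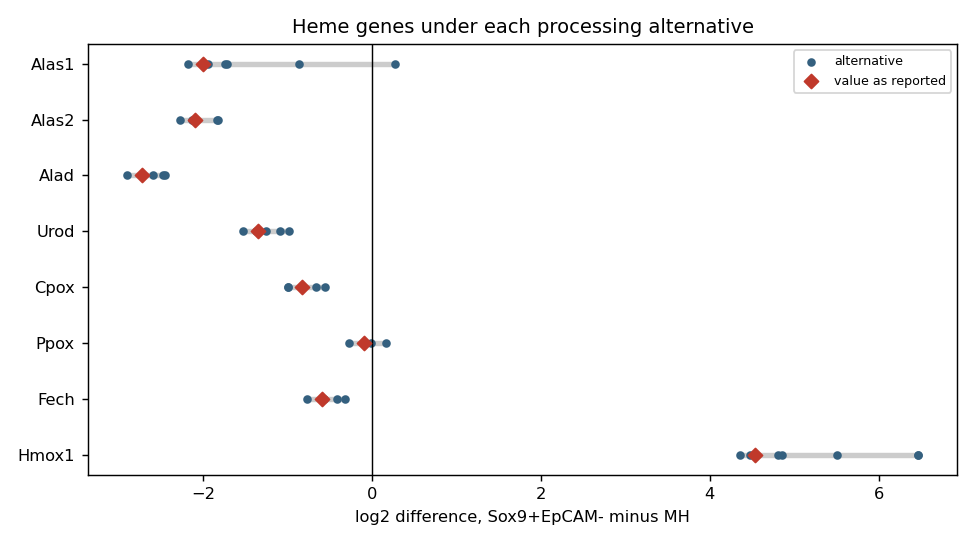
Log2 difference of 8 heme genes as reported (red diamonds) and under the processing alternatives (blue points, range in gray). Hmox1 stays between 4.36 and 6.46 and Alad between -2.90 and -2.45, whereas Alas1 runs from -2.18 to 0.27 and Ppox crosses 0. Of the genes drawn, only Alas1 and Hmox1 have more than 1 probe, so the choice of probe cannot move the others. Uros has no fold and is not drawn.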

How the data were processed

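Total RNA of 2 samples, 1 per group, was labelled with Cy3 and hybridised to 1-colour Agilent mouse arrays by a service provider. The authors deposited spot intensity values from Feature Extraction 10.7.3.1, background-subtracted by that software and not normalized between arrays. The deposited table of ratio values holds these intensities divided by the array median.

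Here control spots and outlier-flagged spots were left out, repeated spots averaged, and log2 intensities set relative to the 75th percentile of their array. Each gene is represented by its brightest probe, taken over both arrays. Where a probe was not well above background on an array, its level there was set to its signal or, if that was lower, to the dimmest signal that was well above background (27.8 for MHs, 18.4 for Sox9+EpCAM- cells). This leaves 1540 genes, Uros among them, without a fold; they count as 0 in medians and as not called. Of 30153 genes, 6736 were well above background on neither array. The size rule was 4-fold. Named were the 9 genes with every probe, genes of the pathway lists, and of each other list the 2 highest and 2 lowest differences measured on both arrays. Further genes of those lists (such as Vsig4, Timd4, C1qc, Csf1r, Rhag, Hbb-b1, Hemgn, Epor, Alb, Cat, Por, Cyp2d10, G6pdx, Txnrd1, Gsr, Nqo1, Gclm and Gclc) were picked with their values in view. The 9 genes and all lists were chosen with earlier results of these data known.

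Alternatives were normexp correction (limma 3.58.1, R 4.3.3, offset 50), scaling by shared probes, quantiles or Gapdh, other probe choices, flagged spots kept, no bound, the deposited table, genes measured on both arrays alone and other thresholds. Some genes of the lists are not reported here. Python 3.11.15, pandas 2.3.3 and numpy 2.4.6 were used. The number of arrays limits the precision.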

Additional observations from a re-analysis of the deposited data

How the results depend on the processing

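Changes of over 1.5-fold are given here. For Alas2, Alad, Urod, Cpox, Ppox and Fech none of the 11 alternatives moved the log2 difference that far. Each of these genes has 1 probe with 1 unflagged spot, measured on both arrays. The other probe choices, flagged spots kept, no bound and genes measured on both arrays alone could therefore not change their values. Only the scalings, the normexp correction and the deposited table could. The choice of probe moved Alas1 to -0.86 with the median of all probes and turned it to 0.27 with the dimmest probe, an alternative chosen after seeing the data, and moved Hmox1 to 5.50 with the median and to 6.46 with the dimmest probe and with the probe of the largest difference. The number of heme genes at least 4-fold lower was 3 as reported, 1 under scaling to Gapdh and 1 under normexp correction, where Alas1 and Alas2, which lie near 4-fold, no longer pass. It was 6 at a threshold of 1.5-fold, which Urod, Cpox and Fech also pass. The cause of the other moves was not tested: the cholangiocyte marker median was 1.17 without the bound against 0.47, the macrophage median -1.99 under normexp correction against -2.78, and with the probe of the largest difference the scavenger median was -0.82 against -0.22 and the regulator median 0.36 against -0.23. Scaling to Gapdh moved the median of all genes with a value by 0.14 and the deposited table by -0.18. Signal over background limits Uros, which has only a bound in MHs. No paired analysis was possible because there is a single array of either kind, and no replicate could be left out.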
